A study of Mus musculus with 17 samples.

Results

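Bone morphogenetic protein (BMP) signalling was followed through 10 genes: the ligand Bmp4, the receptors Bmpr1a and Bmpr2, the signal transducers Smad1 and Smad5, the inhibitor Smad7 and the target genes Id1, Id2, Id3 and Id4. The genes were chosen by name, from 23891 gene symbols in the tables, and each was represented by its RefSeq transcript with the highest mean level over 17 mouse RNA-seq samples. All 10 genes were found, and all 10 reached an FPKM (fragments per kilobase of transcript, scaled to the number of mapped fragments, a level corrected for transcript length) of at least 1 in at least 2 samples. Smad5 had 3 transcripts in the tables and the other genes had 1 each.

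The samples were 4 lines of spermatogonial stem and progenitor cells (SSC), 6 lines of multipotent adult spermatogonial-derived stem cells (MASC), 2 embryonic stem cell (ESC) lines, 2 induced pluripotent stem (iPS) cell lines, 2 cultures of haematopoietic stem and progenitor cells (HSC) and 1 sample of mouse embryonic fibroblasts (MEF). SSC lines were grown from adult testes on MEF feeder cells, in a defined medium with 1% serum, GDNF, basic FGF and EGF, and residual feeder cells were reduced before collection by letting them attach to gelatin. MASC lines arose from SSC cultures after long expansion, were picked as colonies with the morphology of ESCs, and were kept with ESC and iPS cells on MEFs in medium with 10% serum replacement and 1000 U/ml leukaemia inhibitory factor. The cell types therefore differed in medium as well as in identity, and for these genes the share of each cannot be told apart. iPS cells came from E13.5 MEFs that carried tetO-4F2A and H3.3B-HA and were induced with 2 µg/ml doxycycline. HSC cultures were lineage-depleted C57Bl/6J bone marrow cells expanded with Kit ligand on human endothelial feeder cells, and the MEF sample, also of E13.5, was grown in 10% serum. By strain, SSC.1 and SSC.2, MASC.1 and MASC.2 and ESC.1 were Oct4-GFP. SSC.4, MASC.3 and MASC.4, ESC.2, the iPS lines and the MEFs were 129mix. MASC.5 and MASC.6 were Gt(ROSA26)Sor-lacZ, and SSC.3 was C57Bl/6J. The testes came from mice over 3 months old, by the study's methods, and the age of the bone marrow donors was not given in the sources used here.

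BMP ligands bind a complex of type I and type II receptors, which phosphorylates Smad1, Smad5 and Smad9. These join Smad4, enter the nucleus and activate target genes, among which the Id genes respond directly and Smad7 acts back on the pathway as an inhibitor. Id proteins lack a DNA-binding region and hold E proteins such as Tcf3 and Tcf12 away from DNA. In cultured mouse ESCs, BMP4 and its Id targets are known to act beside leukaemia inhibitory factor against neural differentiation, and in the testis Id4 is known as a marker of spermatogonial stem cells.

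The 250 bases before the start of Bmp4, Id2 and Id4, whose levels separated SSC from MASC lines, and of Id3, whose levels did not, are shown here so that the start of each gene can be read beside its expression. RefSeq promoter windows (GRCm38) matched 8 of the 10 genes; Id1 and Smad7 had no entry. Capitals mark GGCGCC, an element to which Smad1 and Smad5 are known to bind, and GTCT or its reverse complement AGAC, the short Smad box. Both strands were searched; these words cannot overlap each other. The windows lie on chr14:46390670-46390919, minus strand (Bmp4), chr12:25096093-25096342, minus strand (Id2), chr4:136143572-136143821, plus strand (Id3), and chr13:48260866-48261115, plus strand (Id4), and each is printed in the direction of its gene.
Bmp4: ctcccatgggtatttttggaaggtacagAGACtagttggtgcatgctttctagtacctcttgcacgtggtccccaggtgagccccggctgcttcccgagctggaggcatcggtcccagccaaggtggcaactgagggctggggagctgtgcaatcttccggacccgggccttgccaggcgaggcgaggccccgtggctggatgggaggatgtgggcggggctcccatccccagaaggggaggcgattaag
Id2: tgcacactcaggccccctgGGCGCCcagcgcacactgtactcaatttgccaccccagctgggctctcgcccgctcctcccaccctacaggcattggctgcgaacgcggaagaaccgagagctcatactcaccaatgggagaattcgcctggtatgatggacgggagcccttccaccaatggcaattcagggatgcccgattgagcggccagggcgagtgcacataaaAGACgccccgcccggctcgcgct
Id3: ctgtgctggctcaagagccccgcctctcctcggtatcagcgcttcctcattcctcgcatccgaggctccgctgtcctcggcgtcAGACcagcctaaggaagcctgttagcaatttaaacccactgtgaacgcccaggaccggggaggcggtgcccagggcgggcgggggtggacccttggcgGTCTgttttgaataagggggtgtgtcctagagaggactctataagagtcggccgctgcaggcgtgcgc
Id4: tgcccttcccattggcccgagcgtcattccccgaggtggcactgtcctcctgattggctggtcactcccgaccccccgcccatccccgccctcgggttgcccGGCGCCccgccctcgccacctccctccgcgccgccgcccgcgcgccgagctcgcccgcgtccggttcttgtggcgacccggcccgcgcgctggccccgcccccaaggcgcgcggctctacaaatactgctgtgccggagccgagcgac
GGCGCC stood 231 bases before the start of Id2 and 148 bases before the start of Id4, and was not among the letters of the Bmp4 and Id3 windows. It was in 9.59% of all 32851 windows of this length. It also stood before Bmpr1a (198 bases), Bmpr2 (105 bases) and a start of Smad5 (19 bases), which did not pass the threshold between SSC and MASC lines. The short Smad box was in the windows of Bmp4, Id2 and Id3, but 82.9% of all windows held it. The windows of all 4 genes were rich in G and C, at 63.2% (Bmp4), 62.8% (Id2), 62.8% (Id3) and 75.6% (Id4), against a median of 52.4% over all windows. Id2, which was higher in MASC than in SSC lines, and Id4, which was lower, thus both held the longer element. A match in letters is a description of the window and does not show binding in these cells.

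The labelled identities were checked against marker genes. Spermatogonial markers (9 genes, Zbtb16, Gfra1 and Ret among them) summed to 531 to 715 FPKM in SSC lines and 155 to 222 FPKM in MASC lines, and pluripotency markers (7 genes, Pou5f1 and Nanog among them) to 7.40 to 114 FPKM and 1448 to 1758 FPKM. The highest of the SSC values was that of SSC.1. Both HSC cultures carried mast cell markers at a summed 38717 and 63172 FPKM, beside blood markers at 933 and 1265 FPKM, so they are called HSC here only by their label. Mast cell transcripts were also present in SSC.3, MASC.2 and ESC.1, at 0.0436% to 0.101% of the mean HSC level. Summed fibroblast markers (12 genes) reached 15.7% of the MEF level in MASC.1, 14.1% in SSC.3, 6.49% in ESC.1 and 5.74% in SSC.1, and 0.914% to 3.63% in the other SSC, MASC and ESC lines. The coverage behind 1 FPKM was 1.26 to 3.23 reads per base. In bulk RNA, fewer cells of a type and less RNA per cell cannot be told apart.

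Bmp4, the ligand (chr14:47003196-47010274, mm9), was nearly silent in SSC lines and present in every MASC line. SSC.1 to SSC.4 had 0.532, 0.480, 0.843 and 0.230 FPKM. In MASC lines the lowest value was 8.24, the median 18.8 and the highest 35.7 FPKM, and the ESC lines had 12.6 and 24.8 FPKM. No MASC or ESC line overlapped the SSC lines, and the highest SSC value was in SSC.3, which was also high in fibroblast markers. On the log2(FPKM + 1) scale, which understates the change of a gene this low, the difference between MASC and SSC lines was 3.53 (SE 0.39, 6 and 4 lines, limma, adjusted p = 0.00011), or 11.6-fold. In SSC.4, Bmp4 rested on a coverage of 0.406 reads per base, with Cufflinks bounds of 0.118 and 0.342 FPKM.

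Among the other cell types, Bmp4 was at 22.2 and 30.5 FPKM in iPS lines, 12.1 FPKM in MEFs and 0.109 and 1.14 FPKM in HSC cultures. The order of the mean log2 levels was iPS, ESC, MASC, MEF, HSC and SSC. In a fit over all 17 samples, neighbours from iPS down to MEF did not differ past the threshold, MEF lay above HSC by 3.09 (adjusted p = 0.0139, in a pair with 9.79% of all transcripts called), and HSC and SSC differed by 0.03 (SE 0.51, adjusted p = 1). The MEF sample, which was a separate culture and not the feeder cells of the SSC lines, had Bmp4 at a level above that of any SSC line.

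The Id target genes did not move together. Id2 and Id4 differed between SSC and MASC lines in opposite directions with no overlap, Id1 was higher in MASC lines with overlap, and the Id3 values of MASC lines lay within the wider range of the SSC lines.

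Id2 (chr12:25778664-25780957, mm9) had 0.628, 0.925, 5.48 and 0.442 FPKM in SSC.1 to SSC.4. In MASC lines the lowest value was 12.8, the median 17.02 and the highest 33.6 FPKM, and ESC lines had 24.9 and 10.6 FPKM. Every MASC and ESC line was above every SSC line. SSC.3 was the highest of the SSC lines. Its share of fibroblast markers multiplied by the MEF level of Id2 would give 5.28 FPKM, close to its value. In SSC.1 and SSC.4 the same product, 2.15 and 0.858 FPKM, exceeded the measured level, and in SSC.2 it was 0.342 FPKM. The part of feeder cells in Id2 was not tested by this product. The difference between MASC and SSC lines was 3.03 (SE 0.47, adjusted p = 0.000896), or 8.17-fold on the log2(FPKM + 1) scale.

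Id2 was also at 17.4 and 55.1 FPKM in iPS lines and 37.4 FPKM in MEFs, and at 342 and 120 FPKM in HSC cultures, its highest values. HSC cultures exceeded SSC lines by 6.46 (SE 0.70, adjusted p = 2.03e-05) and iPS lines by 2.67 (adjusted p = 0.0276, 20.3% of all transcripts called) on the log2 scale, but the difference between HSC cultures and the MEF sample did not pass the threshold. In the order SSC, ESC, MASC, iPS, MEF and HSC, the step from SSC to ESC passed the threshold and no other step between neighbours did.

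Id4 (chr13:48356796-48359405, mm9) went the other way. SSC.1 to SSC.4 had 22.8, 14.2, 15.3 and 20.0 FPKM. In MASC lines the lowest value was 1.70, the median 2.26 and the highest 4.31 FPKM, and ESC lines had 2.89 and 2.10 FPKM. All SSC lines lay above all MASC and ESC lines. The highest MASC value was in MASC.1, which was also highest in fibroblast markers. Its fibroblast share multiplied by the MEF level of Id4 would give 1.32 of the 4.31 FPKM. The next highest was MASC.2, the other Oct4-GFP line of this type, at 3.36 FPKM. Neither feeder cells nor strain was tested as a source of this order. For Id4 the log2 difference of MASC from SSC lines was -2.42 (SE 0.21, adjusted p = 2.94e-05), or 5.34-fold lower.

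In the remaining samples Id4 was at 6.52 and 5.99 FPKM in iPS lines and 8.42 FPKM in MEFs. In the HSC cultures Id4 was listed at 0 in HSC.1 and at 0.608 FPKM in HSC.2. The order was SSC, MEF, iPS, MASC, ESC and HSC. SSC lines and MEFs (-0.996, adjusted p = 0.0717), MEFs and iPS lines (adjusted p = 0.683), iPS and MASC lines, and MASC and ESC lines did not differ past the threshold, while MEFs lay above MASC lines by 1.42 (adjusted p = 0.0134, 18.3% of all transcripts called) and ESC lines differed from HSC cultures (HSC minus ESC -1.45, adjusted p = 0.00678, 19.2% of all transcripts called).

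Id1 (chr2:152561987-152563146, mm9) had 8.06, 9.26, 49.0 and 4.87 FPKM in SSC.1 to SSC.4. In MASC lines the lowest value was 28.8, the median 58.0 and the highest 78.6 FPKM. SSC.3 lay inside the range of the MASC lines and the other SSC lines lay below it. The difference of 2.05 (SE 0.67, 4.14-fold) passed the threshold narrowly (adjusted p = 0.0422). The call held without MASC.1 or SSC.3 and was lost when any other of the 10 lines was left out, with adjusted p between 0.0556 and 0.119 and differences between 1.67 and 2.15. It also failed with the summed fibroblast markers as a covariate (2.05, adjusted p = 0.0524).

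The ESC lines split on Id1, with 10.3 FPKM in ESC.1 and 58.0 FPKM in ESC.2, and so did the iPS lines at 22.7 and 52.6 FPKM and the HSC cultures at 8.84 and 25.5 FPKM. The MEF sample had 38.2 FPKM. ESC and SSC lines differed by 1.00 (SE 0.90, adjusted p = 0.527). With ESC.1 and the other lines high in fibroblast markers left out (SSC.1, SSC.3 and MASC.1), the difference was 2.92 (adjusted p = 0.0315), with 1 ESC line and 2 SSC lines remaining. Of the 15 pairs of cell types, Id1 was called in MASC against SSC alone.

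Id3 (chr4:135699737-135701307, mm9) had 15.8, 50.1, 80.5 and 10.5 FPKM in SSC.1 to SSC.4, and 35.8, 35.3, 21.0, 14.2, 28.8 and 39.0 FPKM in MASC.1 to MASC.6. The SSC lines spread more widely than the MASC lines and lay on both sides of them. The difference was -0.07 (SE 0.63, adjusted p = 1), and it lay between -0.53 and 0.41 when single lines were left out. ESC lines had 55.8 and 11.6, iPS lines 13.8 and 67.9, HSC cultures 2.89 and 34.6 and MEFs 206 FPKM, and Id3 was called in none of the 15 pairs of cell types (limma, 17 samples), with 2 pairs, MEF against MASC and MEF against HSC, under an unadjusted p of 0.05. The MEF value lay above every other sample, and that group has 1 sample.

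**Figure D1:**
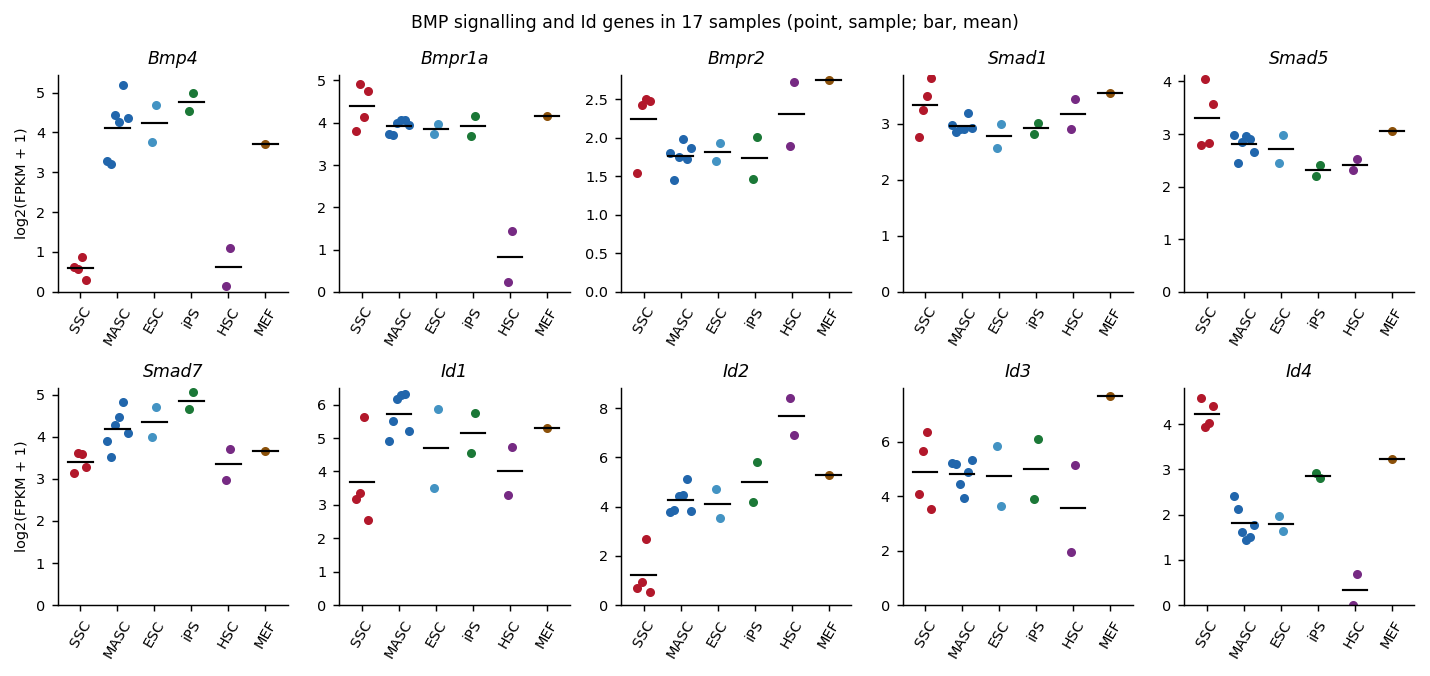
Level of each of the 10 genes in the 17 samples. The vertical axis is log2(FPKM + 1), each point is 1 sample, coloured by cell type, and the black bar is the mean of the cell type (MEF has 1 sample). Bmp4 and Id2 are lower in every SSC line than in any MASC, ESC or iPS line, Id4 is highest in SSC lines, and Bmpr1a is lowest in HSC cultures.

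As a family, the 4 Id genes summed to 35.8 to 150 FPKM in SSC lines and 81.8 to 143 FPKM in MASC lines, so the ranges of the sum overlapped. The make-up differed. Id4 gave 10.2% to 55.9% of the sum in SSC lines and 1.29% to 5.27% in MASC lines, and Id2 gave 1.23% to 3.65% and 13.9% to 23.5%. Id4 was the highest Id gene in SSC.1 and SSC.4, and Id3 in SSC.2 and SSC.3. Id1 was the highest in 4 of 6 MASC lines, and Id3 in MASC.1 and MASC.6. In the HSC cultures Id2 alone gave 96.7% and 66.5% of the sum, and in MEFs Id3 gave 71.1%. These shares compare FPKM, which is corrected for transcript length, and carry no test of their own.

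**Figure D2:**
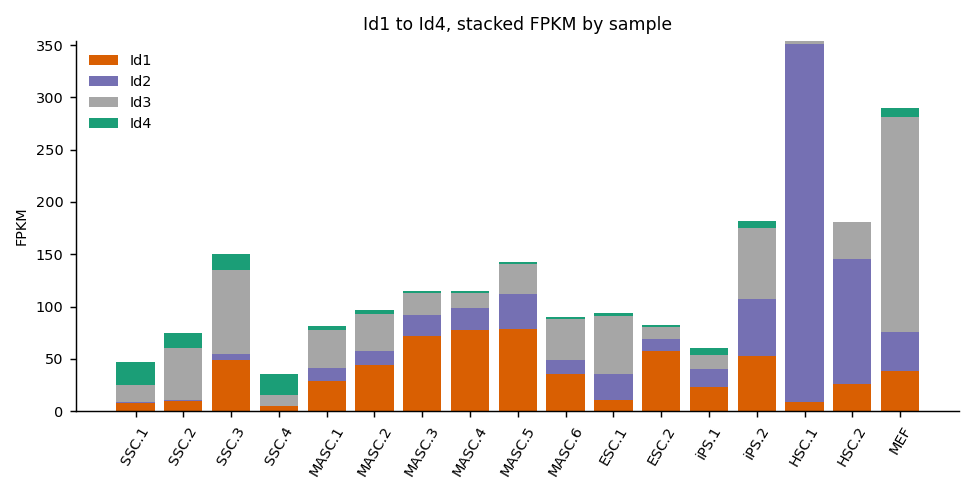
FPKM of Id1, Id2, Id3 and Id4 stacked for each of the 17 samples. Id4 is a visible part of the bar in SSC lines (10.2% to 55.9%) and a thin part in MASC lines (1.29% to 5.27%), while Id2 fills most of both HSC bars.

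The receptors and the receptor-regulated Smads were present in all SSC, MASC, ESC and iPS lines and in MEFs and did not pass the threshold between SSC and MASC lines. Bmpr1a, a type I receptor (chr14:35224254-35315732, mm9), had 12.9, 29.0, 16.6 and 25.8 FPKM in SSC.1 to SSC.4 and 12.2 to 15.9 FPKM in MASC lines, a difference of -0.47 (SE 0.20, adjusted p = 0.114). SSC.1 lay among the MASC lines and the other 3 lay above them. Bmpr2, the type II receptor (chr1:59821123-59934925, mm9), had 1.92, 4.35, 4.67 and 4.58 FPKM in SSC lines and 1.73 to 2.96 FPKM in MASC lines (-0.48, SE 0.19, adjusted p = 0.0905), again with SSC.1 among the MASC lines.

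Smad1 (chr8:81862298-81923367, mm9) had 5.84 to 13.1 FPKM in SSC lines and 6.23 to 8.13 FPKM in MASC lines, a difference of -0.37 (SE 0.18, adjusted p = 0.156). Smad5 (chr13:56804371-56843739, mm9) had 5.92 to 15.4 FPKM and 4.43 to 6.92 FPKM, a difference of -0.51 (SE 0.25, adjusted p = 0.169), and this passed the threshold once the 4 lines highest in fibroblast markers were left out (-1.04, adjusted p = 0.0134). The other Smad5 transcripts were lower, with means of 1.19 and 2.03 FPKM in SSC lines and 0.165 and 0.850 FPKM in MASC lines, and reads shared between the 3 transcripts make their split an estimate. All 4 genes were lower on average in MASC lines, and 2 of them, Bmpr1a and Bmpr2, were under an unadjusted p of 0.05 (limma). The share of all transcripts under that p was not computed. Transcripts with a mean of at least 1 FPKM were also lower in MASC lines, with a median difference of -0.13. On this scale the differences of the 4 genes, -0.37 to -0.51, were larger than that median, so only their direction was shared with it. The median was -0.43 with each sample rescaled to the same total, a setting in which the 4 differences are not given here.

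Smad7, the inhibitory Smad on chromosome 18, had 7.87, 11.2, 11.1 and 8.78 FPKM in SSC.1 to SSC.4. MASC lines had a lowest value of 10.5, a median of 17.2 and a highest of 27.3 FPKM, and only MASC.2 overlapped the SSC lines. The difference of 0.77 (SE 0.25, adjusted p = 0.0401) passed the threshold on p but not the log2 difference of 1 that was also required. In iPS lines, at 24.1 and 32.3 FPKM, Smad7 exceeded SSC lines by 1.45 (SE 0.34, adjusted p = 0.00828, 15.3% of all transcripts called) and also HSC cultures (HSC minus iPS -1.51, adjusted p = 0.0126). ESC lines had 15.02 and 24.95, HSC cultures 6.90 and 12.1 and MEFs 11.7 FPKM.

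In the comparison of MASC with SSC lines, 3 of the 10 genes were called higher (Bmp4, Id1 and Id2) and 1 lower (Id4), where a call required an adjusted p under 0.05 and a log2 difference of at least 1. Over all 32661 transcripts, 15.6% were called, 6.04% higher and 9.6% lower, and among the transcripts with a mean of at least 1 FPKM the share was 29.1%. 3 of the called genes, Bmp4, Id2 and Id4, did not overlap between the groups, as did 25.3% of all transcripts. The median difference of the 10 genes was -0.22, beside -0.13 over the transcripts with a mean of at least 1 FPKM.

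Bmp4, Id2 and Id4 were also called between ESC and SSC lines, in a comparison that uses the same SSC lines and in which 13.7% of all transcripts were called and 37.5% did not overlap between the groups. The differences were 3.64 for Bmp4 (SE 0.52, adjusted p = 0.00101), 2.90 for Id2 (SE 0.63, adjusted p = 0.00937) and -2.44 for Id4 (SE 0.29, adjusted p = 0.000333). The call of Id2 was lost when ESC.1 alone was left out (2.32, adjusted p = 0.0973). It held in both fits that left out ESC.1 together with other lines, those without the 4 lines highest in fibroblast markers (2.80, adjusted p = 0.0308) and without the 3 lines with mast cell transcripts (2.81, adjusted p = 0.0166). Smad7 was 0.94 higher in ESC lines (SE 0.33, adjusted p = 0.0765).

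**Figure D3:**
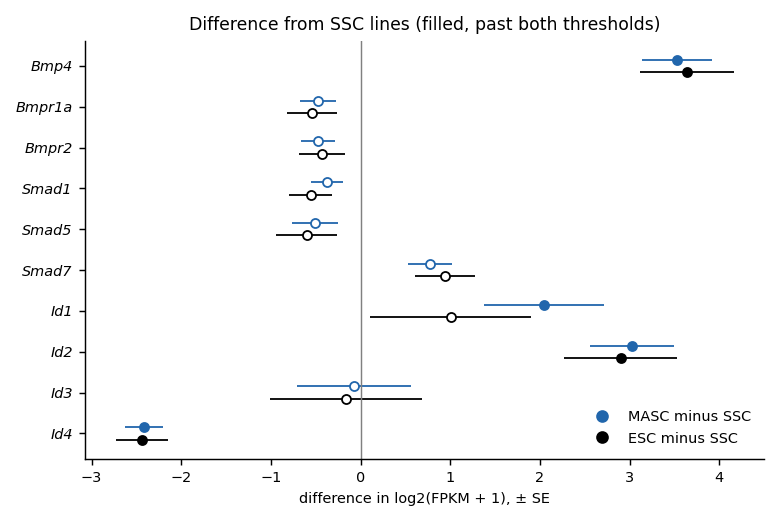
Difference of the 10 genes from SSC lines in log2(FPKM + 1), for MASC lines (blue) and ESC lines (black), with the standard error of the limma fit as the bar. Filled points passed the adjusted p of 0.05 and the log2 difference of 1. Bmp4, Id2 and Id4 are filled in both, and Id1 in MASC lines only, where the ESC value has the widest bar.

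Between MASC and ESC lines, limma called 0 of the 10 genes, beside 0.0184% of all transcripts, and 0 had an unadjusted p under 0.05. The differences ran from -0.17 for Smad7 to 1.04 for Id1 (SE 0.84), and for Bmp4 and Id4 they were -0.11 (SE 0.49) and 0.02 (SE 0.27). With 2 ESC lines, the size of the error for Id1 and Id3 (SE 0.80) leaves room for differences of more than a log2 unit. Between iPS and ESC lines, 0 of the 10 genes were called by limma, beside 0.116% of all transcripts. Id4 alone had an unadjusted p under 0.05, with a difference of 1.06 (SE 0.33, limma, adjusted p = 0.31). Both iPS lines lay above both ESC lines in Id4 and below both in Smad5. The shares of all transcripts under that p or without overlap were not computed for this pair.

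Between iPS lines and MEFs, the cell from which they were made, limma called 0 of the 10 genes, in a pair with 17.4% of all transcripts called. With 10 genes and 1 MEF sample, this count cannot be set apart from that share. Of the 10 genes, 2 (Bmpr2 and Smad7) had an unadjusted p under 0.05. Bmpr2 was at 1.76 and 3.03 FPKM in iPS lines and 5.75 FPKM in MEFs (-1.02, SE 0.41, adjusted p = 0.111). Id3 had the largest difference, -2.70, with an SE of 1.47. The MEF group has 1 sample, which the fit assumed to vary like the others.

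HSC cultures differed from SSC lines in 3 of the 10 genes, where 22.9% of all transcripts were called. Id2 was higher, and Bmpr1a and Id4 were lower. Bmpr1a was at 0.174 and 1.70 FPKM in HSC cultures, below every other sample, and the difference from SSC lines was -3.56 (SE 0.34, adjusted p = 7.44e-06). In HSC.2, the fibroblast markers (7.05% of the MEF sum) multiplied by the MEF level of Bmpr1a would give 1.19 of the 1.70 FPKM. The difference in Id4 was -3.89 (SE 0.29, adjusted p = 8.84e-07), a value that depends on the pseudocount because HSC.1 was listed at 0. Bmpr2, Smad1 and Smad7 were present in both HSC cultures, at 2.71 and 5.62, 6.49 and 9.86, and 6.90 and 12.1 FPKM.

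The spread of Id1 and Id3 between lines of one type was set beside the fibroblast markers, since MEFs had the highest Id3 level. In SSC.3 the share of fibroblast markers multiplied by the MEF level would give 29.1 of 80.5 FPKM of Id3 and 5.40 of 49.0 FPKM of Id1. In MASC.1 it would give 32.4 of 35.8 FPKM of Id3, and in SSC.1 11.8 of 15.8 FPKM. Such a product can overstate the feeder part. In SSC.1 it gave 2.15 FPKM of Id2 and 0.697 FPKM of Bmp4, where 0.628 and 0.532 FPKM were measured. In SSC.3 it gave 1.72 FPKM of Bmp4, where 0.843 FPKM was measured. For the other genes in SSC.1 and SSC.3 it stayed below the measured level. SSC.2 had the lowest fibroblast share of the SSC lines and an Id3 level of 50.1 FPKM, of which the same product would give 1.88 FPKM. The product assumes that feeder cells in co-culture express each gene as the MEF sample did, and the part of feeder cells in the Id levels was not tested beyond the fits named here.

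**Figure D4:**
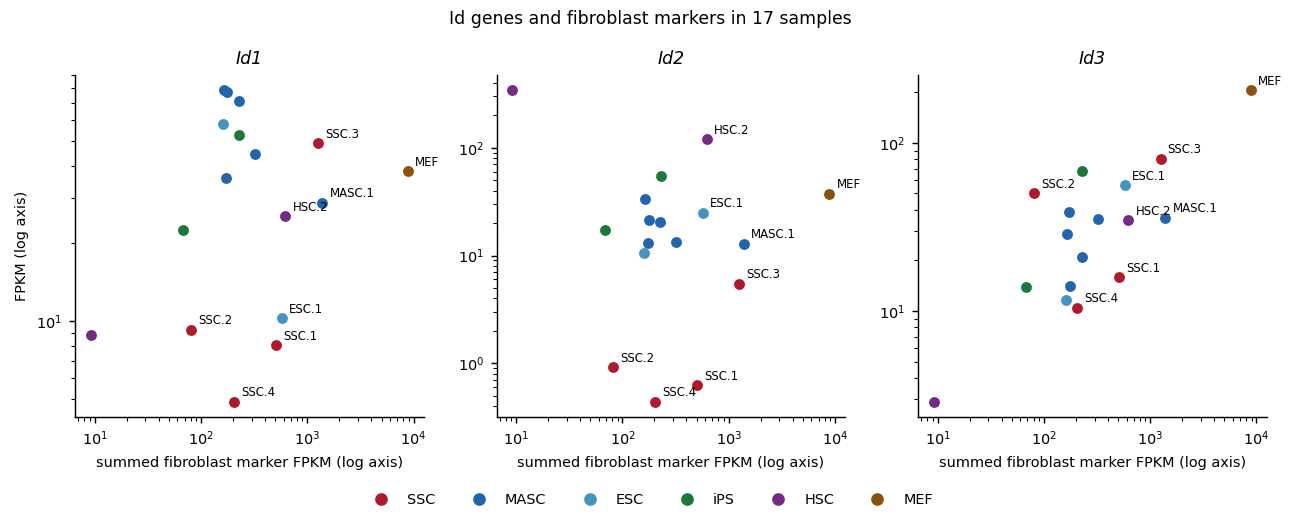
FPKM of Id1, Id2 and Id3 against the summed FPKM of 12 fibroblast markers in the 17 samples, both on log axes, coloured by cell type. SSC.3 is the highest SSC line in all 3 panels and in fibroblast markers, SSC.2 combines the lowest fibroblast sum of the SSC lines with 50.1 FPKM of Id3, and MEFs stand at the top right for Id3.

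Without SSC.1, SSC.3, MASC.1 and ESC.1, the 4 lines highest in fibroblast markers, the difference between MASC and SSC lines was 3.86 for Bmp4 (adjusted p = 0.00456), 2.94 for Id1 (adjusted p = 0.00568), 3.603 for Id2 (adjusted p = 0.00248) and -2.47 for Id4 (adjusted p = 0.00141). Without SSC.3, MASC.2 and ESC.1, the 3 lines with mast cell transcripts, it was 3.81 for Bmp4, 2.75 for Id1, 3.601 for Id2 and -2.55 for Id4, and all 4 stayed past the threshold. Both sets of lines were chosen after the data were seen. Within the Oct4-GFP strain alone (2 lines each), the differences were 2.66, 1.93, 2.998 and -1.98 for the same genes, and within 129mix (2 MASC lines and 1 SSC line) 4.05, 3.68, 3.93 and -2.87.

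The rest of the pathway was read from 62 further genes in 6 lists. Of these, 2 were called higher and 14 lower in MASC lines relative to SSC lines, with a median difference of -0.45, and 46 were not called. Over all transcripts the shares were 6.04% higher and 9.6% lower, and 29.1% in either direction with a median of -0.13 among those with a mean of at least 1 FPKM. Among 15 other ligands, Gdf3, a ligand known from pluripotent cells, was higher by 4.37 (adjusted p = 2.85e-09), with 0.445 to 0.625 FPKM in SSC lines and 27.6 to 36.8 FPKM in MASC lines. Bmp7 (-2.13), Bmp8b (-1.49) and Bmp6 (-1.45) were lower, and Bmp8b overlapped between the groups. The ligands thus differed in direction, with Bmp4 and Gdf3 higher and 3 others lower in MASC lines.

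Among 8 other receptors and co-receptors, Eng, a co-receptor of endothelial cells and early embryonic cells, was higher by 1.88 (adjusted p = 0.00479). The co-receptors Rgma (-1.84) and Rgmb (-1.49) and the type II receptor Acvr2b (-1.08) were lower. Of 10 other Smads and regulators only Ski, a repressor of Smad activity, was called, at 47.8 to 119 FPKM in SSC lines and 26.8 to 32.5 FPKM in MASC lines (-1.50, adjusted p = 0.000572). Smad9, the third receptor-regulated Smad of the pathway, had a difference of -0.91 (adjusted p = 1.51e-06) and missed the required size. Of 16 secreted or membrane antagonists and similar inhibitors, Chrd was lower (-1.26, adjusted p = 0.000847) and 15 were not called.

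Of 10 further genes known as BMP targets, 0 were called higher by limma and 4 lower, namely Atoh8 (-3.17), Dlx3 (-3.07), Hey1 (-2.56) and Msx2 (-1.85), none overlapping between the groups. Over all transcripts 6.04% were higher and 9.6% lower, and 25.3% did not overlap between the groups. Of the transcripts with a mean of at least 1 FPKM, 29.1% were called. Atoh8 had 2.62 to 23.8 FPKM in SSC lines and 0.104 to 0.342 FPKM in MASC lines. Id1 and Id2 were therefore higher in MASC lines while these 4 targets and Id4 were lower. Of the 3 E proteins that Id proteins bind, Tcf12 (-1.19, adjusted p = 0.00596) and Tcf3 (-1.13, adjusted p = 0.00213) were lower in MASC lines, and Tcf4 (0.92, adjusted p = 0.0309) missed the required size. Between ESC and SSC lines, 2 of the 62 genes were higher and 13 lower, beside 13.7% of all transcripts called. Between MASC and ESC lines limma called 0 of the 62, beside 0.0184% of all transcripts. An unadjusted p under 0.05 was found for 5 of them, and the share of all transcripts under that p was not computed.

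**Figure D5:**
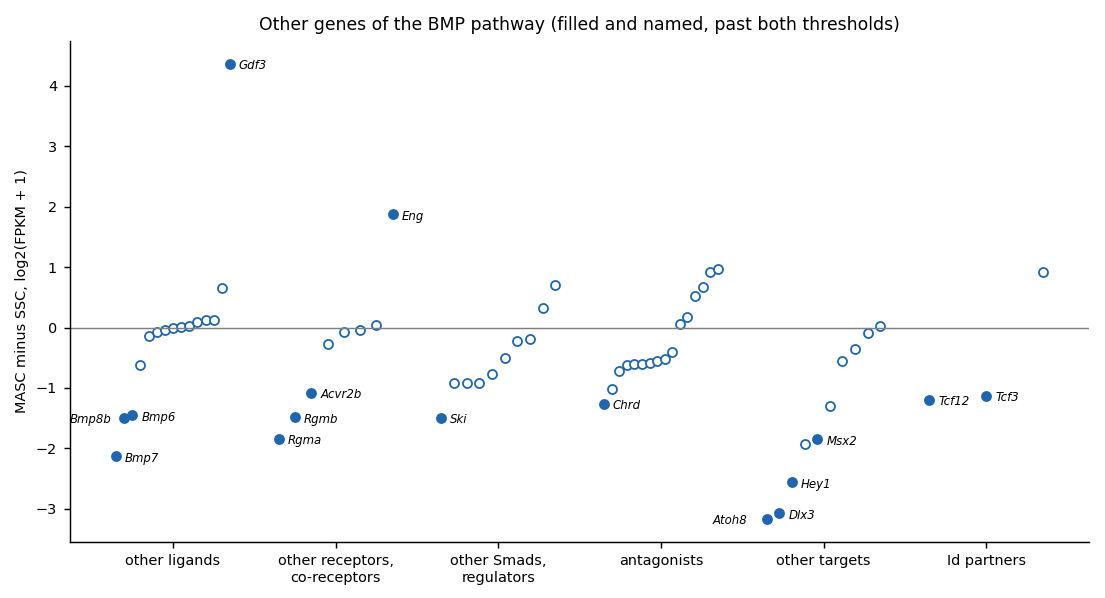
Difference between MASC and SSC lines in log2(FPKM + 1) for 62 further genes of the BMP pathway, in 6 lists (horizontal axis), 1 point a gene. Filled points with a name passed the adjusted p of 0.05 and the log2 difference of 1. Gdf3 (4.37) and Eng (1.88) stand above 0 and the other 14 named genes stand below, with 4 of them among the targets.

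The genes whose profiles over the 17 samples came nearest to those of the ligand and the Id genes were found among 13645 genes with a mean of at least 1 FPKM, by the root mean square difference of log2 profiles centred on their own means. Nearest to Bmp4 were Tfpi (0.54) and Calml4 (0.61), beside a spread of Bmp4 itself of 1.81. Tfpi had means of 1.08 FPKM in SSC lines and 46.0 FPKM in MASC lines. Nearest to Id4 were Aaed1 (0.39) and Igsf3 (0.41), with a spread of Id4 of 1.26, and Igsf3 had means of 22.8 and 4.26 FPKM in SSC and MASC lines.

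Nearest to Id2 were Lgals9 (0.70) and Ucp2 (0.71), which had means of 243 and 210.4 FPKM in HSC cultures. Nearest to Id1 were Serpinb9b (0.69) and Phlda1 (0.71), and nearest to Id3 were Bmp1 (0.57) and Map6 (0.68). Bmp1, a secreted protease despite its name, had a mean of 91.2 FPKM in MEFs and 5.98 to 10.6 FPKM in the means of the other cell types. None of the 4 Id genes had another Id gene among its 2 nearest.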

How the data were processed

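RNA-seq of 17 mouse samples was analysed from 1 table per sample. Per the labels and the study's methods, the authors aligned reads to mm9 with TopHat2 (2.0.11), left out duplicates and reads that aligned to more than 1 place, and ran Cufflinks with upper-quartile and GC normalization. The authors deposited an FPKM per RefSeq transcript with its confidence bounds, and a coverage signal in reads per base. No read counts were used, and depth is known only as coverage, which limits values well under 1 FPKM.

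Of 33262 entries per table, 601 were further loci of a listed transcript and were left out. The remaining 32661 were used as log2(FPKM + 1), without a filter. limma 3.58.1 in R 4.3.3 (lmFit, eBayes without trend) was fitted over the 12 SSC, MASC and ESC lines, and over all 17 samples for iPS, HSC and MEF, with Benjamini-Hochberg adjustment over all 32661 transcripts in each comparison. A call needed an adjusted p under 0.05 and a log2 difference of at least 1. In simulated data for MASC against SSC (32661 transcripts), 156 of 200 changed by a log2 difference of 2 were recovered, with 2 false calls. The changed transcripts were drawn from those with a mean log2(FPKM + 1) of at least 1, and normal noise was drawn independently for each line. The data had 5109 calls rather than 200 changes, so these figures check the procedure and do not give the recovery or false calls in the data. The labels do not say which lines came from separate animals, so p-values measure only the spread between these lines.

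Groups came from the sample titles and strains from the labels. The 10 genes, the 62 pathway genes and the marker lists were chosen with earlier results of these data known. From the pathway lists, genes called in MASC against SSC were named, at most 5 per list by size, and for Bmp4 and each Id gene the 2 nearest profiles. Smad9 and Tcf4 were named after their values were seen. Alternatives were another pseudocount, a filter, other scalings, 1 value per gene symbol, other thresholds, trend and robust estimation, covariates, a replicate block and each line left out.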

Additional observations from a re-analysis of the deposited data

Results flagged for a closer look

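Among the 10 genes in the groups of 4 and 6 lines (20 gene and group pairs), 1 value stood apart by Dixon's criterion, about as many as chance gives at 1 in 20. Bmpr2 in SSC.1, at 1.54 on the log2(FPKM + 1) scale (1.92 FPKM), was the lowest of the SSC lines, and the other 3 lay between 4.35 and 4.67 FPKM. SSC.1 was also the lowest SSC line in Bmpr1a, Smad1, Smad5 and Smad7, and had the highest sum of pluripotency markers among them (114 FPKM).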

How the results depend on the processing

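Bmp4, Id2 and Id4 kept direction and call between MASC and SSC lines under all alternatives run. Id1 kept its direction and lost its call with rescaling of each sample to the same total (1.79, adjusted p = 0.0688) and as given above. Between ESC and SSC lines, Bmp4 and Id4 kept their calls, and Smad7 was called with quantile normalization (1.15, adjusted p = 0.0323). Rescaling moved the median difference of transcripts at 1 FPKM or more from -0.13 to -0.43 between MASC and SSC lines. Smad5 was called between HSC and SSC with a pseudocount of 0.1 (-1.01), with rescaling (-1.34) and without SSC.1 (-1.06) or SSC.3 (-1.05). SSC.3 is the only line of its strain and MASC.5 and MASC.6 the only 2 of theirs, so in the fit with strain as a covariate these lines add nothing to the difference between MASC and SSC lines.

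Replicate numbers recur across groups. Same-numbered SSC and MASC lines did not deviate together (mean r -0.031, -0.225 to 0.185, 4 pairs), and 0 of 4 SSC lines correlated best with the MASC line of its own number. For SSC and ESC lines, mean r was 0.235 with the same number (0.208 to 0.262, 2 pairs) and -0.0783 with different numbers (-0.262 to 0.236, 6 pairs). The deviations of the 2 ESC lines mirror each other, so these pairs are not independent. With a replicate block, which left out MEF, Id1 fell to 1.90 (adjusted p = 0.0825) between MASC and SSC lines, Smad7 rose to 1.07 (adjusted p = 0.0387) between ESC and SSC lines, and 5029 and 4513 transcripts were called, with no other call changed among the 10 genes.

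Counts moved as follows, and the cause was not tested beyond the thresholds themselves. With a log2 difference of at least 2, called transcripts were 1262 for MASC against SSC (5109 in the main setting), 1332 for ESC against SSC (4479), 2692 for iPS against MEF (5684), 3005 for HSC against SSC (7482) and 14 for iPS against ESC (38), and called pathway genes were 5 and 8 for MASC and ESC against SSC (16 and 15). Without a size threshold, 10099, 7000, 10 and 101 transcripts were called for MASC against SSC, ESC against SSC, MASC against ESC (6) and iPS against ESC, and 26 pathway genes for MASC against SSC. For MASC against ESC, 13 transcripts were called with a pseudocount of 0.1, 37 without the lines high in fibroblast markers and 31 without those with mast cell transcripts. For iPS against ESC, 21 were called with a filter of 1 FPKM in 2 samples and 20 with 1 value per symbol. Pathway genes called between ESC and SSC numbered 6 without the lines with mast cell transcripts. Quantile normalization called 1 of the 10 genes between iPS and MEF, Bmpr2 (-1.07, adjusted p = 0.0436).
With single lines left out, the counts ranged from 5 to 34 transcripts for MASC against ESC (34 without ESC.1, 33 without ESC.2), from 41 to 79 for iPS against ESC (62 without ESC.1, 79 without iPS.1), from 3650 (without iPS.1) to 4745 for iPS against MEF, and from 6 (without ESC.2) to 16 pathway genes for ESC against SSC.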

Other observations

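The 62 further pathway genes were also read in the comparisons outside the SSC, MASC and ESC lines. Between HSC cultures and SSC lines 3 were called higher and 21 lower, with a median difference of -0.52, beside 22.9% of all transcripts. Between iPS lines and MEFs 3 were called higher and 13 lower, with a median of -0.22, beside 17.4% of all transcripts. Bmp7, lower in MASC than in SSC lines, was above its SSC median of 13.1 FPKM in both HSC cultures, at up to 44.9 FPKM, and at 0.0296 FPKM in MEFs.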
